A study of Caenorhabditis elegans with 16 samples.

Results

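The genes described here are the glutathione S-transferase (*gst*) and UDP-glycosyltransferase (*ugt*, also called UDP-glucuronosyl transferase) genes of *Caenorhabditis elegans*. They were taken from the table of gene counts by their WormBase symbol, which had to be gst- or ugt- followed by a number. This gave 44 *gst* and 67 *ugt* genes of 46904 genes in all. The rule used no measured value, but it was set with earlier results of these data known. All of them are protein-coding by Ensembl's annotation of WBcel235, the assembly to which the positions below refer.

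Both families act in the second phase of detoxification, in which a reactive or poorly soluble compound is joined to a small molecule that makes it easier to export. Glutathione S-transferases join it to the tripeptide glutathione, and some of them also detoxify the aldehydes left by lipid peroxidation. UDP-glycosyltransferases join it to a sugar taken from a UDP-sugar, and ABC transporters then move the conjugates out of the cell. In *C. elegans* many genes of both families are active in the intestine, and a part of them is controlled by SKN-1, the transcription factor of the oxidative stress response. The reporter most often used for that response is driven by the *gst-4* promoter.

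RNA of whole L4 larvae was sequenced in 16 libraries, 4 biological replicates for each of 4 genotypes. The *pals-25(jy111)* mutants carry a premature stop codon made by genome editing that activates PALS-25 in an otherwise wild-type background. The *pals-22(jy3)* mutants have lost PALS-22, the protein that represses PALS-25. In *pals-22(jy3) pals-25(jy9)* animals, called double mutants below, PALS-25 function is lost as well, and wild-type (WT) animals of the N2 strain were the control. Animals were fed *E. coli* OP50-1 at 20 C and grown for 44 h, except *pals-22(jy3)* mutants, which develop slowly and were grown for 48 h. In every comparison with *pals-22(jy3)* mutants, genotype and growth time therefore cannot be told apart. Each genotype is a single strain, and the mutations are present in all tissues.

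The libraries held between 14028579 and 34151410 assigned read pairs, and *gst* and *ugt* genes together took 0.258% to 0.363% of them. Both mutated genes had counts in every genotype. *pals-22* was at 17 to 24.2 CPM (counts scaled to library size) in *pals-22(jy3)* mutants and 8.45 to 10.2 CPM in *pals-25(jy111)* mutants. It was at 5.67 to 7.22 CPM in double mutants, against 3.6 to 5.19 CPM in WT. *pals-25* was at 8.39 to 11.4 CPM in *pals-22(jy3)* mutants and 5.41 to 7.37 CPM in *pals-25(jy111)* mutants. It was at 2.7 to 3.72 CPM in double mutants, against 2.38 to 2.8 CPM in WT. All marker lists of intestine, epidermis, muscle, neurons, pharynx, germline, sperm and yolk were detected in every genotype, with 0 of their matched genes at 0. Replicate 1 of WT, *pals-25(jy111)* and *pals-22(jy3)* lay apart from the other replicates in a principal component analysis, as did replicate 4 of the double mutants. Counts of called genes are therefore also given with each library left out in turn, and without replicate 1 of both genotypes compared. In comparisons with double mutants the latter fit kept their replicate 4.

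Levels within the families spanned a wide range. Scaled by gene length, the mean level in WT ran from 0 to 494 CPM per kb of exon, with a median of 3.67 CPM per kb for *gst* genes and 4.97 CPM per kb for *ugt* genes. At 10 CPM per kb or more were 17 *gst* and 25 *ugt* genes, and 15 *gst* and 17 *ugt* genes were under 1 CPM per kb. In all, 4 members had no count in WT.

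A few genes made up most of the *gst* message. *gst-10*, whose enzyme conjugates the lipid peroxidation product 4-hydroxynonenal, ranked first in WT at 494 CPM per kb. It was followed by *gst-1* at 281 ± 17.1, *gst-27* at 270 ± 46.1, *gst-13* at 266 ± 17.7 and *gst-26* at 192 ± 29.2 CPM per kb (mean ± SD, n = 4). The levels of *gst-1*, *gst-27* and *gst-13* lay within 1 SD of each other. The sixth was *gst-42*, at 90.6 CPM per kb, which encodes the zeta-class enzyme maleylacetoacetate isomerase of tyrosine breakdown. The 6 highest *gst* genes of each genotype took 73.9% of the summed *gst* CPM in *pals-25(jy111)* mutants, 63.3% in *pals-22(jy3)* mutants and 69.2% in double mutants, against 75.7% in WT.

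The *ugt* message was spread over more genes. The 6 highest *ugt* genes of each genotype took 47.0% in *pals-25(jy111)* mutants, 43.9% in *pals-22(jy3)* mutants and 44.2% in double mutants, against 45.7% in WT. In WT, *ugt-22* ranked first of the *ugt* genes with 138 CPM per kb, and *ugt-62*, *ugt-47*, *ugt-23*, *ugt-46* and *ugt-50* followed between 71.7 and 51.3 CPM per kb. The order changed with the genotype. *gst-10* ranked first among all members in *pals-25(jy111)* mutants and double mutants as in WT, but not in *pals-22(jy3)* mutants, where *gst-1* ranked first at 245 CPM per kb. In double mutants that lead lay within the SD, with *gst-10* at 243 ± 87.2 and *gst-1* at 239 ± 38.7 CPM per kb.

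**Figure D1:**
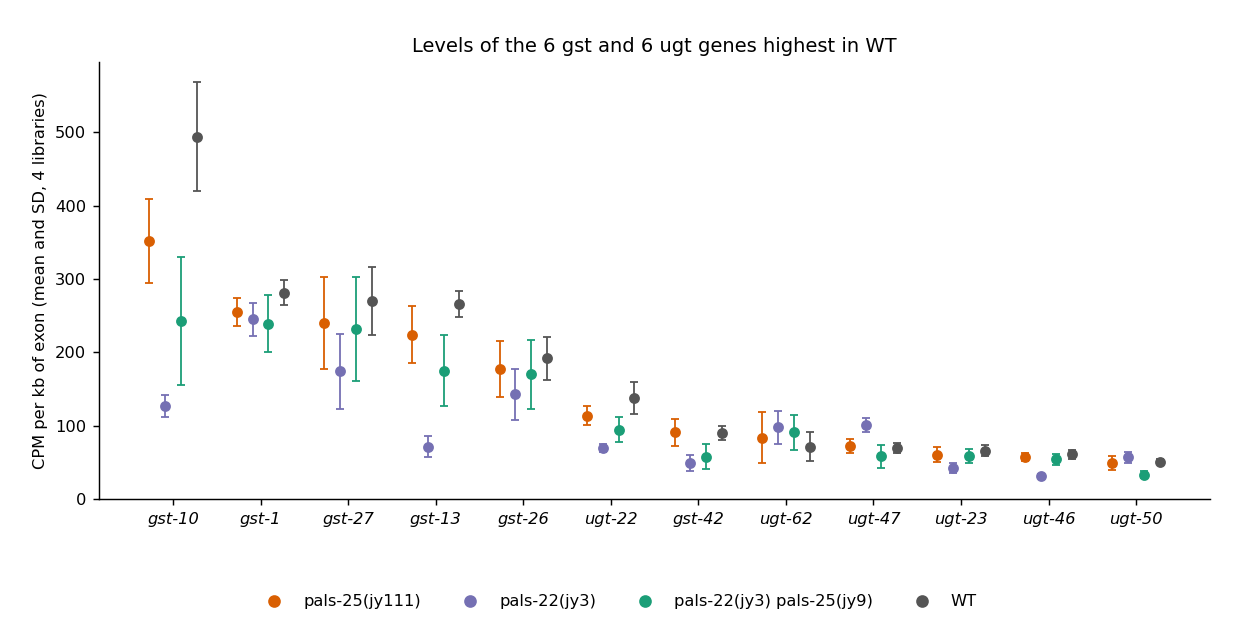
Mean level in CPM per kb of exon (vertical axis, bars show the SD of 4 libraries) of the 6 *gst* and 6 *ugt* genes with the highest mean in WT (horizontal axis), for *pals-25(jy111)*, *pals-22(jy3)*, double mutants and WT from left to right. *gst-10* stands at 127 CPM per kb in *pals-22(jy3)* mutants and 494 CPM per kb in WT, while *gst-1* differs less, at 245 and 281 CPM per kb.

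Summed over the family, *gst* genes gave 1424 ± 176 CPM in *pals-25(jy111)* mutants, 1082 ± 170 CPM in *pals-22(jy3)* mutants and 1260 ± 280 CPM in double mutants, against 1648 ± 122 CPM in WT (SD, n = 4). The highest library of *pals-22(jy3)* mutants, at 1268 CPM, lay under the lowest of WT, at 1559 CPM. The *ugt* sums were 1791 ± 221, 1751 ± 184 and 1741 ± 168 CPM in the same 3 mutants, against 1940 ± 97.2 CPM in WT, and the libraries of each mutant overlapped with those of WT. These sums are given as values without a test. In whole animals, fewer cells of a type and less RNA per cell cannot be told apart.

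Differences were tested gene by gene with edgeR's quasi-likelihood test and Benjamini-Hochberg adjustment over all genes tested. A gene was called higher or lower at an adjusted p under 0.05, and calls past a log2 fold change of 2 were also counted. Of the 44 *gst* and 67 *ugt* genes, 84 passed the filter on low counts in all 5 comparisons, 8 in some of them, and 19 in none. At least 1 comparison called 52 members (15 *gst* and 37 *ugt* genes), and 40 were tested without a call. How many of all genes were called in at least 1 comparison was not computed, so these counts have no background. In some calls the lower group did not reach the filter by itself, and the gene was tested because all 4 libraries of the higher group did, so that the filter favoured the direction of the call. These were the calls of *gst-30* in 3 comparisons, of *ugt-32* and *ugt-43* in 2 each, and of *ugt-4* and *ugt-42* in 1 each.

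The *pals-25(jy111)* mutants were compared with WT to see what activated PALS-25 does when PALS-22 is present. Few transferase genes were called, except when the replicate number was used as a block. Of 86 members tested, 1 was higher, *gst-30*, against 2.33% of all genes tested, and 2 were lower, *gst-4* and *ugt-54*, against 1.41% of all genes. *gst-30* was also the only member past a log2 fold change of 2, which 1.25% of all genes passed. It was tested only because its *pals-25(jy111)* libraries reached the filter, which 0 of its WT libraries did. Members had a median log2 fold change of -0.10, and all genes one of 0.02. The replicate numbers were taken to pair these libraries, though not every library correlated best with its own number. With the replicate number as a block 5 members were higher and 14 lower (5.81% and 16.3%), against 5.17% and 4.61% of all genes. Each fit without 1 library had 1 higher member and 1 to 4 lower ones, with 4 without replicate 2 of *pals-25(jy111)* and 1 without its replicates 3 or 4 or WT replicate 3. Without replicate 1 of both genotypes 1 member was higher and 4 were lower, against 2.04% and 1.06% of all genes.

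*gst-30* lies on chromosome II from 4933883 to 4935054. It had 1.63, 0.771, 1.48 and 1.13 CPM in *pals-25(jy111)* mutants and 2.13, 1.86, 1.69 and 1.45 CPM in *pals-22(jy3)* mutants. It had 0.268, 0, 0.137 and 0.188 CPM in double mutants and 0.0704, 0.115, 0.0403 and 0.13 CPM in WT. Every library of both genotypes with active PALS-25 was therefore above every library of the other genotypes. The gene was weakly expressed even where it was raised, with 135 counts in *pals-25(jy111)* mutants and 222 in *pals-22(jy3)* mutants, against 16 in double mutants and 8 in WT. Its log2 fold change was 3.72 ± 0.41 (SE) in *pals-25(jy111)* mutants against WT (edgeR adjusted p = 0.00144), a 13.2-fold difference. It was 4.14 ± 0.34 in *pals-22(jy3)* mutants against WT (edgeR adjusted p = 7.39e-05) and 3.44 ± 0.53 against double mutants (edgeR adjusted p = 0.00293). These 3 calls were kept without any 1 library. In *pals-22(jy3)* against *pals-25(jy111)* mutants it did not pass the threshold, at 0.44 ± 0.26 (edgeR adjusted p = 0.314).

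*gst-4* moved the other way in the same genotypes. The gene lies on chromosome IV from 10142225 to 10143099, beside *gst-2* and *gst-3*, and overlaps *dhs-12* on the same strand, so that reads of the shared part could belong to either gene. It had 16.1, 18.4, 18.6 and 11.7 CPM in *pals-25(jy111)* mutants, 7.51, 7.59, 10.9 and 5.94 CPM in *pals-22(jy3)* mutants and 27.6, 26.6, 29.6 and 13 CPM in double mutants, against 38.7, 31.1, 40.3 and 29.5 CPM in WT. The libraries of *pals-22(jy3)* mutants were the lowest, neither they nor those of *pals-25(jy111)* mutants overlapped with WT, and the *pals-25(jy111)* libraries overlapped with those of the double mutants, whose replicate 4 was at 13 CPM. The log2 fold change was -1.11 ± 0.17 in *pals-25(jy111)* mutants (edgeR adjusted p = 0.00945) and -2.22 ± 0.20 in *pals-22(jy3)* mutants (edgeR adjusted p = 0.000121), both against WT. In double mutants it was -0.57 ± 0.24 and did not pass (edgeR adjusted p = 0.162). *pals-22(jy3)* mutants were lower than double mutants by a log2 difference of -1.67 ± 0.29 (edgeR adjusted p = 0.00506) and lower than *pals-25(jy111)* mutants by -1.09 ± 0.22 (edgeR adjusted p = 0.0165). Only the last call depended on a library. It was lost without *pals-25(jy111)* replicate 3 or *pals-22(jy3)* replicate 2, at edgeR adjusted p = 0.0573 to 0.0583.

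*ugt-54*, on chromosome IV from 10761698 to 10764415, was the third gene. It had 4.21, 4.62, 3.85 and 4.43 CPM in *pals-25(jy111)* mutants, against 12.3, 6.65, 9.78 and 7.93 CPM in WT, with a log2 fold change of -1.10 ± 0.20 (edgeR adjusted p = 0.0212). The groups did not overlap. The call was lost without *pals-25(jy111)* replicate 3 or 4 or WT replicate 3, at edgeR adjusted p = 0.0612 to 0.0867. In *pals-22(jy3)* mutants the gene was lower too, at 5.59 ± 0.755 CPM against 9.17 ± 2.47 CPM in WT (log2 fold change -0.80 ± 0.21, edgeR adjusted p = 0.0275). That call was kept without *pals-22(jy3)* replicate 1 and WT replicates 2 and 4 and lost without any of the other 5 libraries. Double mutants, without PALS-25 function, had 2.15, 2.86, 2.7 and 8.31 CPM. Their mean was below those of WT and both other mutants, and their replicate 4 overlapped with WT.

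**Figure D2:**
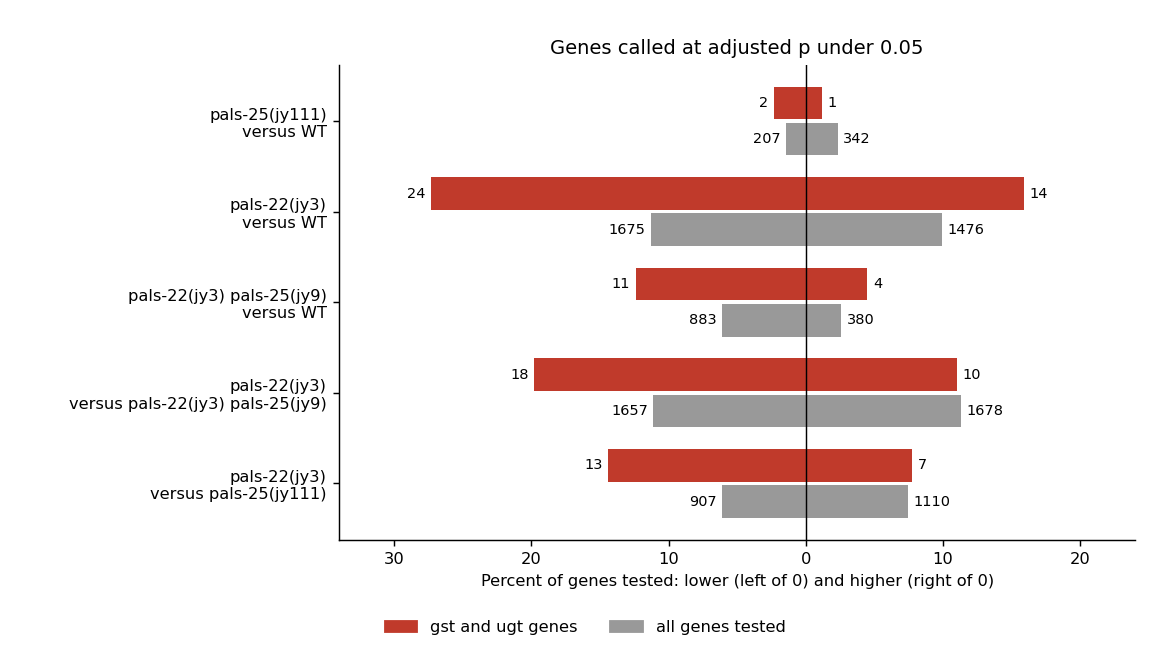
Percent of genes tested that were called lower (bars to the left of 0) or higher (bars to the right) at adjusted p under 0.05 in each of 5 comparisons, for *gst* and *ugt* genes (red) and all genes tested (grey), with the number of genes at the bar ends. In *pals-22(jy3)* mutants against WT, 24 of 88 members were lower (27.3%) and 14 were higher (15.9%), against 11.3% and 9.97% of all genes.

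More members were called in *pals-22(jy3)* mutants, as were more genes in all, and the difference from *pals-25(jy111)* mutants was not tested as such. In *pals-22(jy3)* mutants against WT, 24 of 88 members tested were lower (27.3%), against 11.3% of all genes, and 14 were higher (15.9%), against 9.97% of all genes. Among *gst* genes 7 were lower and 5 higher of 32, and among *ugt* genes 17 were lower and 9 higher of 56. Past a log2 fold change of 2 were *gst-30* and *ugt-43* upward and *gst-4*, *gst-10*, *ugt-4* and *ugt-32* downward, while 4% of all genes passed it in either direction. Of these only *gst-4* and *gst-10* reached the filter in both groups, and for the others the filter favoured the direction of the call. Members had a median log2 fold change of -0.15, and all genes one of -0.09. With size factors of the DESeq2 type 14 members were higher and 22 lower, while the share of higher genes among all calls moved to 59.1%, against 46.8% with TMM. Fits that each left out 1 library had 9 to 19 higher and 14 to 25 lower members. The 9 came without WT replicate 4, and 14 or 15 lower members came without *pals-22(jy3)* replicate 2, 3 or 4. Without replicate 1 of both genotypes 20 were higher and 28 lower (22.7% and 31.8%), against 16.9% and 12.8% of all genes. The replicate numbers were taken to pair these libraries, though not every library correlated best with its own number. With the replicate block 21 were higher and 35 lower (23.9% and 39.8%), against 14.4% and 20.4% of all genes.

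Several marker lists moved with this comparison, and their part in it was not tested. The summed level of the 6 yolk genes was 1808 to 3564 CPM in *pals-22(jy3)* mutants, against 847 to 1457 CPM in WT, and 2 of the 6 were called higher. The 7 intestine markers found, of 8 listed, summed to 6146 to 12348 CPM in *pals-22(jy3)* mutants, against 7619 to 11077 CPM in WT, with 2 higher and 1 lower. The 3 pharynx markers summed to 35.5 to 93.1 CPM, against 87.3 to 141 CPM in WT, with 1 lower. By edgeR 0 of the 9 epidermis, 3 muscle, 5 neuron, 5 germline and 30 sperm genes tested were called. At an unadjusted p under 0.05 were 1 epidermis and 1 muscle gene, and DESeq2 called 1 muscle gene.

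The most abundant *gst* genes were among those that fell in *pals-22(jy3)* mutants. *gst-10*, on chromosome V from 2561690 to 2564645, averaged 98.5 ± 11.9 CPM in *pals-22(jy3)* mutants, 274 ± 44.4 CPM in *pals-25(jy111)* mutants and 189 ± 67.6 CPM in double mutants, against 383 ± 57.5 CPM in WT. The WT libraries were at 339 CPM or more, and all 12 mutant libraries were at 307 CPM or less. The log2 fold change against WT was -2.05 ± 0.13 in *pals-22(jy3)* mutants (edgeR adjusted p = 1.51e-05), kept without any 1 library. It was -1.06 ± 0.26 in double mutants (edgeR adjusted p = 0.0437), kept only without replicate 1 or replicate 4 of the double mutants (edgeR adjusted p up to 0.127 without another library). In *pals-25(jy111)* mutants it was -0.49 ± 0.15 and did not pass (edgeR adjusted p = 0.155), but passed with the replicate block (edgeR adjusted p = 0.0158). *gst-10* was also called lower in *pals-22(jy3)* than in double mutants. That call was kept only without double mutant replicate 4 (edgeR adjusted p up to 0.0913 without another library).

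*gst-13*, on chromosome II from 9231457 to 9232344, differed in *pals-22(jy3)* mutants from all 3 other genotypes. It had 43.4, 69.4, 58.5 and 51.4 CPM in *pals-22(jy3)* mutants, 152, 217, 171 and 156 CPM in *pals-25(jy111)* mutants and 166, 133, 160 and 83.7 CPM in double mutants, against 186, 211, 212 and 216 CPM in WT. The *pals-22(jy3)* libraries lay below every other library. The log2 fold changes were -1.99 ± 0.14 against WT (edgeR adjusted p = 2.64e-05), -1.36 ± 0.23 against double mutants (edgeR adjusted p = 0.00428) and -1.72 ± 0.17 against *pals-25(jy111)* mutants (edgeR adjusted p = 0.000523). All 3 calls were kept without any 1 library. In *pals-25(jy111)* mutants against WT it was -0.25 ± 0.12 (edgeR adjusted p = 0.385), and in double mutants against WT -0.64 ± 0.19 (edgeR adjusted p = 0.0684).

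*gst-42*, the maleylacetoacetate isomerase gene on chromosome X from 11726264 to 11727936, had 34.6, 57.8, 57.8 and 51.1 CPM in *pals-22(jy3)* mutants, against 79.9, 94.9, 102 and 88.1 CPM in WT. Its log2 fold change was -0.96 ± 0.16 (edgeR adjusted p = 0.00346), and the groups did not overlap. In *pals-25(jy111)* mutants it was at 92.2 ± 18.5 CPM, a log2 difference of 0.01 ± 0.14 from WT (edgeR adjusted p = 0.986). Double mutants had 67.5, 58, 73.1 and 34.3 CPM, all below WT and overlapping with *pals-22(jy3)* mutants. Their log2 fold change against WT was -0.69 ± 0.21 and did not pass (edgeR adjusted p = 0.0728), and *pals-22(jy3)* mutants differed from them by -0.29 ± 0.25 (edgeR adjusted p = 0.426). In *pals-22(jy3)* against *pals-25(jy111)* mutants it was -0.95 ± 0.20 (edgeR adjusted p = 0.017), lost only without *pals-25(jy111)* replicate 3 (edgeR adjusted p = 0.0582). The other abundant *gst* genes moved less. *gst-1* was at 188 ± 17.5 CPM in *pals-22(jy3)* mutants and 215 ± 13.1 CPM in WT, and its call (log2 fold change -0.29 ± 0.08, edgeR adjusted p = 0.03) was lost without any 1 of the 8 libraries. *gst-27* and *gst-26*, neighbours on chromosome II, had log2 fold changes of -0.74 ± 0.23 and -0.52 ± 0.19 and passed only with the replicate block (edgeR adjusted p = 0.000601 and 0.00185, against 0.0542 and 0.0909 without it).

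Besides *gst-30*, 4 *gst* genes rose in *pals-22(jy3)* mutants against WT. *gst-24*, on chromosome II from 13610443 to 13611366, had 8.25, 12.3, 13.1 and 15.8 CPM in *pals-22(jy3)* mutants, against 2.68, 5.23, 4.91 and 5.37 CPM in WT, with no overlap (log2 fold change 1.33 ± 0.26, edgeR adjusted p = 0.00856, kept without any 1 library). *gst-20*, in the same cluster, was at 69.0 ± 18.5 CPM, against 34.3 ± 9.35 CPM in WT (log2 fold change 0.90 ± 0.24, edgeR adjusted p = 0.0309), with overlapping libraries. That call was kept only without *pals-22(jy3)* replicate 1 or WT replicate 3. *gst-22* and *gst-7*, taken here outside the rule for named genes to complete the group, were at 23 and 87.8 CPM in *pals-22(jy3)* mutants, against 11.1 and 58.8 CPM in WT. The libraries of both did not overlap between the groups, and the edgeR adjusted p-values were 0.0286 and 0.0385. Each of these 2 calls was kept in 3 of the 8 fits that left out 1 library.

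Among *ugt* genes, *ugt-32* on chromosome V from 3841794 to 3844007 had the lowest log2 fold change in *pals-22(jy3)* mutants. It had 0.656, 0.66, 0.499 and 0.419 CPM in *pals-22(jy3)* mutants, 0.723, 1.95, 1.17 and 3.3 CPM in *pals-25(jy111)* mutants and 2.3, 2.67, 2.05 and 2.48 CPM in double mutants, against 2.75, 4.53, 2.86 and 4.55 CPM in WT. The *pals-22(jy3)* libraries lay below all others, with 70 counts in the 4 libraries and 333 in WT. Its log2 fold change was -2.80 ± 0.28 against WT (edgeR adjusted p = 0.000242) and -2.14 ± 0.22 against double mutants (edgeR adjusted p = 0.0004), both kept without any 1 library. *ugt-4*, on chromosome V from 12793014 to 12795336, was also low, at 0.448 ± 0.274 CPM in *pals-22(jy3)* mutants and 2.1 ± 0.938 CPM in WT (log2 fold change -2.25 ± 0.55, edgeR adjusted p = 0.0215). Its call was lost without *pals-22(jy3)* replicate 2 or 3 or WT replicate 3, at edgeR adjusted p = 0.0581 to 0.065.

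Abundant *ugt* genes were among the lower ones as well. *ugt-22*, on chromosome IV from 13639260 to 13644567, had 140, 151, 152 and 130 CPM in *pals-22(jy3)* mutants, against 347, 267, 277 and 245 CPM in WT. *ugt-46*, on chromosome X from 525928 to 530289, had 67.2, 74.8, 78.4 and 66.0 CPM in *pals-22(jy3)* mutants, against 119, 150, 132 and 145 CPM in WT. Neither gene's groups overlapped. The log2 fold changes were -1.08 ± 0.11 for *ugt-22* (edgeR adjusted p = 0.000226) and -1.03 ± 0.10 for *ugt-46* (edgeR adjusted p = 0.000182), both kept without any 1 library. Double mutants had 232, 185, 211 and 151 CPM of *ugt-22*, all below WT, though not called without the replicate block. *ugt-22* was called lower in *pals-22(jy3)* than in double mutants. That call was kept only without double mutant replicate 4 (edgeR adjusted p up to 0.11 without another library). *ugt-23*, on chromosome X from 9922862 to 9925173, was at 72.4 ± 12.2 CPM, against 113 ± 13 CPM in WT (log2 fold change -0.74 ± 0.13, edgeR adjusted p = 0.00498). Of the other abundant *ugt* genes, *ugt-47* was higher, at 168 ± 15.9 CPM against 115 ± 11.4 CPM in WT (log2 fold change 0.45 ± 0.09, edgeR adjusted p = 0.00687). *ugt-50* and *ugt-62* were not called, at log2 fold changes of 0.06 ± 0.10 and 0.34 ± 0.22.

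Of the 9 *ugt* genes that rose in *pals-22(jy3)* mutants against WT, *ugt-43* had the highest log2 fold change. The gene lies on chromosome IV from 10464588 to 10467297. It had 1.91, 2.91, 1.38 and 2.17 CPM in *pals-22(jy3)* mutants, 0.471, 0.725, 0.233 and 0.362 CPM in *pals-25(jy111)* mutants and 0.805, 1.29, 0.819 and 3.91 CPM in double mutants, against 0.704, 0.307, 0.403 and 0.347 CPM in WT. The *pals-22(jy3)* and double mutant libraries were all above WT, and those of *pals-25(jy111)* mutants overlapped with WT. Its log2 fold change was 2.20 ± 0.33 against WT (edgeR adjusted p = 0.00227) and 2.15 ± 0.38 against *pals-25(jy111)* mutants (edgeR adjusted p = 0.00861), both kept without any 1 library. In double mutants against WT it was 1.98 ± 0.62 and did not pass (edgeR adjusted p = 0.0831).

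*pals-22(jy3)* mutants had more *ugt-16* and *ugt-21* message than each of the other genotypes. *ugt-21*, on chromosome IV from 9500311 to 9502574, overlaps a pseudogene on the opposite strand. It had 44.2, 49.3, 40.1 and 45.8 CPM in *pals-22(jy3)* mutants, 18, 22.5, 21 and 18.5 CPM in *pals-25(jy111)* mutants and 14.5, 16.3, 16.6 and 12.5 CPM in double mutants, against 21.1, 18.9, 18.1 and 20.7 CPM in WT. The *pals-22(jy3)* libraries stood clear of all others, and the spread within each genotype was small. For *ugt-21* the log2 fold change was 1.09 ± 0.08 against WT (edgeR adjusted p = 4.02e-05), 1.51 ± 0.11 against double mutants (edgeR adjusted p = 6.85e-05) and 1.09 ± 0.11 against *pals-25(jy111)* mutants (edgeR adjusted p = 0.000431), all kept without any 1 library.

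*ugt-16*, on chromosome V from 12825024 to 12827442, had 63.8, 79.7, 76.5 and 53.1 CPM in *pals-22(jy3)* mutants, 23.9, 24.9, 32.9 and 24.6 CPM in *pals-25(jy111)* mutants and 43, 33.3, 46.1 and 25.1 CPM in double mutants, against 25.4, 22.5, 27.9 and 23.5 CPM in WT. Again the *pals-22(jy3)* libraries were above all others. For *ugt-16* the log2 fold change was 1.37 ± 0.14 against WT (edgeR adjusted p = 0.000241) and 1.29 ± 0.16 against *pals-25(jy111)* mutants (edgeR adjusted p = 0.00154), both kept without any 1 library. Against double mutants it was 0.82 ± 0.21 (edgeR adjusted p = 0.0269), lost without *pals-22(jy3)* replicate 2 or 3 or double mutant replicate 2 (edgeR adjusted p = 0.0555 to 0.0778). *ugt-19* and *ugt-20*, neighbours on chromosome IV, both rose in *pals-22(jy3)* mutants against WT. *ugt-19* was at 44.9 ± 18 CPM, against 13.8 ± 4.37 CPM in WT (log2 fold change 1.58 ± 0.33, edgeR adjusted p = 0.01). *ugt-20* was at 7.68 ± 1.55 CPM, against 3.99 ± 0.406 CPM in WT (log2 fold change 0.84 ± 0.17, edgeR adjusted p = 0.00914). Both calls were kept without any 1 library.

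**Figure D3:**
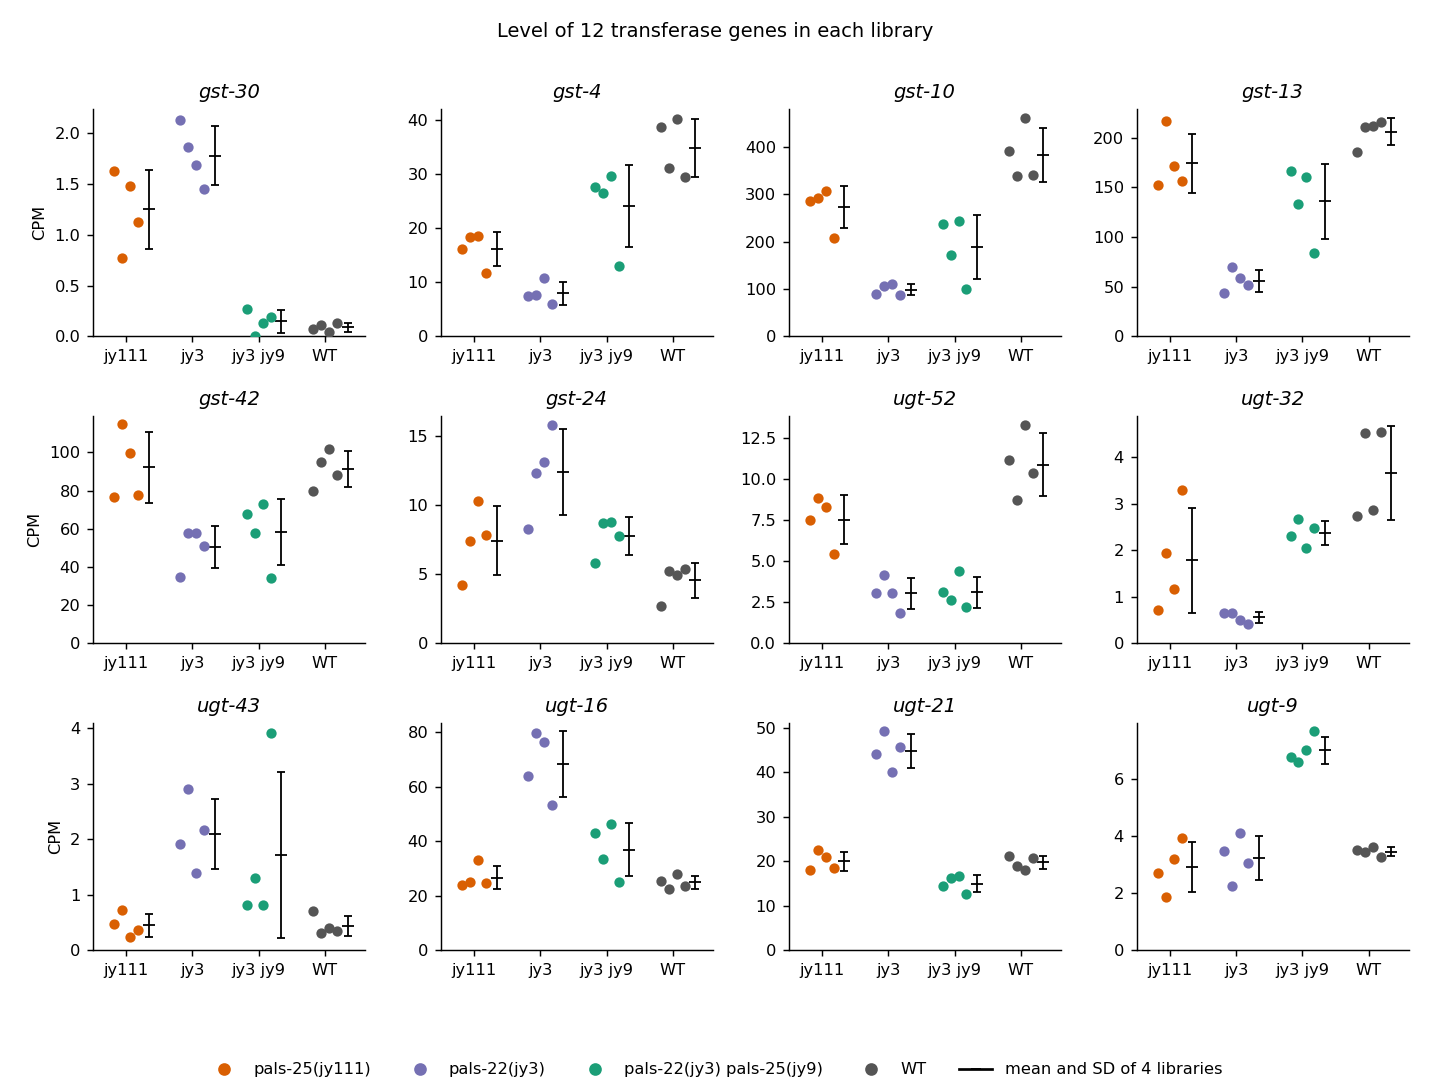
Level in CPM (vertical axis, linear from 0) of 12 *gst* and *ugt* genes in each library, by genotype (horizontal axis, jy3 jy9 is the double mutant), with the mean and SD of 4 libraries beside the points. *gst-30* is at 0.771 CPM or more only in *pals-25(jy111)* and *pals-22(jy3)* mutants, *ugt-21* is at 40.1 CPM or more only in *pals-22(jy3)* mutants, and *ugt-52* is low in both genotypes that lack PALS-22.

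Double mutants were compared with WT to see what remains of the changes when PALS-25 is lost as well. Of 89 members tested, 11 were lower (12.4%), against 6.07% of all genes, and 4 were higher (4.49%), against 2.61% of all genes. No member passed a log2 fold change of 2 with edgeR's adjusted p under 0.05, which 0.907% of all genes did. Past that fold were 2 members at an unadjusted p under 0.05 and 2 with DESeq2's adjusted p. At an unadjusted p under 0.05, 18 members were higher and 28 lower at any fold. Of all 14551 genes tested, 1860 were higher and 2228 lower at that threshold. Members had a median log2 fold change of -0.17, and all genes one of 0.02. Fits that each left out 1 library had 1 to 5 higher and 5 to 17 lower members, with 17 lower without replicate 4 of the double mutants. As few as 5 or 6 lower members were left without double mutant replicates 2 or 3 or WT replicates 3 or 4, and 7 without WT replicate 2. Without replicate 2 of the double mutants or WT replicates 1, 3 or 4, 1 member was higher, and without double mutant replicate 3, 2 were. Without replicate 1 of both genotypes 3 were higher and 7 lower, against 1.86% and 3.89% of all genes. The yolk genes summed to 73.3 to 1119 CPM in double mutants, against 847 to 1457 CPM in WT, with 3 of 6 lower, and 2 of 3 muscle markers were higher (7635 to 9711 CPM in double mutants, against 6547 to 7164 CPM in WT). Of the other lists, 1 epidermis, 1 pharynx and 1 germline marker were higher and 1 intestine marker lower. Their part in the result was not tested.

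*ugt-52* was lower in both genotypes without PALS-22. The gene lies on chromosome IV from 778784 to 784182. It had 3.11, 2.62, 4.44 and 2.22 CPM in double mutants, 3.09, 4.17, 3.07 and 1.87 CPM in *pals-22(jy3)* mutants and 7.54, 8.89, 8.33 and 5.44 CPM in *pals-25(jy111)* mutants, against 11.2, 8.72, 13.3 and 10.4 CPM in WT. The double mutant and *pals-22(jy3)* libraries overlapped each other and lay below all WT and *pals-25(jy111)* libraries. The log2 fold change against WT was -1.85 ± 0.23 in double mutants (edgeR adjusted p = 0.00499) and -1.93 ± 0.25 in *pals-22(jy3)* mutants (edgeR adjusted p = 0.00105), both kept without any 1 library. Between *pals-22(jy3)* and double mutants the difference was -0.09 ± 0.31 (edgeR adjusted p = 0.839). In *pals-25(jy111)* mutants against WT it was -0.53 ± 0.19 and did not pass (edgeR adjusted p = 0.237).

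*ugt-51*, *ugt-6* and *gst-35* were also lower in double mutants than in WT. *ugt-51*, on chromosome V from 5175020 to 5177309, had 9.59, 7.05, 8.33 and 6.31 CPM in double mutants, against 24.2, 14.5, 16.3 and 16.4 CPM in WT (log2 fold change -1.22 ± 0.20, edgeR adjusted p = 0.0122). *ugt-6*, on chromosome V from 12795481 to 12798224, had 29.2, 33.6, 34.1 and 24.2 CPM, against 62.1, 59.0, 51.5 and 58.7 CPM in WT (log2 fold change -0.97 ± 0.11, edgeR adjusted p = 0.00429). Neither overlapped, and both calls were kept without any 1 library. *gst-35* was at 6.95 ± 1.16 CPM, against 14.6 ± 4.75 CPM in WT (log2 fold change -1.10 ± 0.23, edgeR adjusted p = 0.0304), and that call was lost without double mutant replicate 2 or 3 or WT replicate 3 or 4 (edgeR adjusted p = 0.0591 to 0.0884). The other mutants had means within 1 SD of the double mutants' for *gst-35*, at 7.12 ± 1.97 CPM in *pals-25(jy111)* and 7.66 ± 2.88 CPM in *pals-22(jy3)* mutants. *ugt-51* was at 9.22 ± 2.1 CPM in *pals-25(jy111)* and 9.34 ± 3.18 CPM in *pals-22(jy3)* mutants. *ugt-6* averaged 48.5 CPM in *pals-25(jy111)* and 38.7 CPM in *pals-22(jy3)* mutants, against 30.3 CPM in double mutants. In *pals-25(jy111)* mutants against WT, both *ugt-51* and *gst-35* passed only with the replicate block (edgeR adjusted p = 0.00668 and 0.00727, against 0.0679 and 0.116 without it). The comparisons with WT share the WT libraries.

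The 4 genes higher in double mutants than in WT were *ugt-9*, *ugt-13*, *ugt-57* and *gst-38*. *ugt-9*, on chromosome V from 4896048 to 4897969, had 6.75, 6.58, 7.0 and 7.67 CPM in double mutants, 2.7, 1.86, 3.19 and 3.91 CPM in *pals-25(jy111)* mutants and 3.47, 2.25, 4.11 and 3.05 CPM in *pals-22(jy3)* mutants, against 3.52, 3.42, 3.62 and 3.25 CPM in WT. The double mutant libraries were above all others. For *ugt-9* the log2 fold change was 0.98 ± 0.12 against WT (edgeR adjusted p = 0.00444), and *pals-22(jy3)* mutants were lower than double mutants by -1.19 ± 0.20 (edgeR adjusted p = 0.00473). Both calls were kept without any 1 library. *ugt-13*, in the same cluster on chromosome V, had 13.9, 18, 12.2 and 44.1 CPM in double mutants, against 5.49, 7.11, 4.23 and 5.72 CPM in WT (log2 fold change 1.94 ± 0.44, edgeR adjusted p = 0.0355). It was kept without double mutant replicates 1, 3 or 4 and lost without any other library (edgeR adjusted p up to 0.109). *ugt-57* (log2 fold change 1.51 ± 0.38, edgeR adjusted p = 0.0458) and *gst-38* (0.90 ± 0.20, edgeR adjusted p = 0.0323) were kept in 1 and 3 of the 8 fits that left out 1 library.

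The part of the response to loss of PALS-22 that depends on PALS-25 was addressed by comparing *pals-22(jy3)* mutants with double mutants. Of 91 members tested, 18 were lower (19.8%), against 11.1% of all genes, and 10 were higher (11%), against 11.3% of all genes. Past a log2 fold change of 2 were *gst-30* and *ugt-8* upward and *ugt-32* downward, with 4.11% of all genes past it. Of these only *ugt-8* reached the filter in both groups. The lower genes were mostly *ugt* genes, with 15 of 59 *ugt* and 3 of 32 *gst* genes called lower, and 8 *ugt* and 2 *gst* genes called higher. Members had a median log2 fold change of -0.11, and all genes one of -0.09. With size factors of the DESeq2 type 11 were higher and 17 lower, and the share of higher genes among all calls moved to 63.2%, against 50.3% with TMM. Fits that each left out 1 library had 8 to 16 higher and 11 to 20 lower members, the 16 without *pals-22(jy3)* replicate 1 and the 11 without *pals-22(jy3)* replicate 3. Without replicate 1 of both genotypes 14 were higher (15.4%), against 13.9% of all genes. In that fit 13 were lower (14.3%), against 12.8% of all genes. Both shares were close to those of all genes, and the fit kept replicate 4 of the double mutants. The yolk genes summed to 1808 to 3564 CPM in *pals-22(jy3)* mutants, against 73.3 to 1119 CPM in double mutants, with 4 of 6 higher, and 2 of 3 pharynx and 2 of 5 germline markers were lower. Of the other lists, 2 intestine and 1 neuron marker were higher, 1 muscle marker was lower, and 1 epidermis marker moved each way. Their part was not tested.

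*ugt-30* and *ugt-33*, both on chromosome V, rose in *pals-22(jy3)* against double mutants. *ugt-30* had 14.5, 12.6, 13.9 and 8.03 CPM in *pals-22(jy3)* mutants, against 3.22, 3.24, 3.93 and 3.68 CPM in double mutants (log2 fold change 1.73 ± 0.21, edgeR adjusted p = 0.000985). *ugt-33* had 8.8, 11.4, 9.75 and 7.77 CPM in *pals-22(jy3)* mutants, against 3.3, 3.38, 4.78 and 3.57 CPM in double mutants (log2 fold change 1.25 ± 0.18, edgeR adjusted p = 0.00234). Neither overlapped, and both calls were kept without any 1 library. The WT means lay between those of the mutants, at 6.23 ± 2 CPM for *ugt-30* and 5.43 ± 0.634 CPM for *ugt-33*. *ugt-8*, on chromosome V from 4903930 to 4905942, was more variable, with 40.3, 14.7, 21.2 and 12.5 CPM in *pals-22(jy3)* mutants, against 5.98, 3.43, 3.14 and 8.61 CPM in double mutants (log2 fold change 2.01 ± 0.48, edgeR adjusted p = 0.0201). The call was lost without double mutant replicate 2 or 3 (edgeR adjusted p = 0.0553 to 0.0625). WT was at 11.4 ± 7.47 CPM for *ugt-8*, a mean between those of the mutants. *ugt-50*, one of the abundant *ugt* genes, stood at 130 ± 17.6 CPM in *pals-22(jy3)* mutants, against 75.6 ± 11.5 CPM in double mutants (log2 fold change 0.70 ± 0.13, edgeR adjusted p = 0.00705), and double mutants were also lower than WT by a log2 difference of -0.66 ± 0.11 (edgeR adjusted p = 0.0134).

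Lower in *pals-22(jy3)* than in double mutants were *ugt-53* and *ugt-42*, which were not called in *pals-22(jy3)* mutants against WT. *ugt-53*, on chromosome V from 2849343 to 2852028, had 3.47, 7.05, 6.41 and 7.42 CPM in *pals-22(jy3)* mutants, against 10.1, 23, 19.2 and 12.3 CPM in double mutants (log2 fold change -1.49 ± 0.33, edgeR adjusted p = 0.014). *ugt-42*, on chromosome V from 647188 to 649763, was at 0.446 ± 0.108 CPM, against 1.07 ± 0.264 CPM in double mutants (log2 fold change -1.34 ± 0.27, edgeR adjusted p = 0.00939). It was tested here only because all 4 double mutant libraries reached the filter, against 2 in *pals-22(jy3)* mutants, and was not tested in *pals-22(jy3)* mutants against WT, where too few libraries did. *ugt-65*, on chromosome IV from 12420683 to 12432636, spans several annotated noncoding genes and the collagen gene *col-130*. It was at 15 ± 4.54 CPM, against 30.3 ± 6.2 CPM in double mutants (log2 fold change -1.09 ± 0.25, edgeR adjusted p = 0.0172), a call lost without *pals-22(jy3)* replicate 3 or 4 (edgeR adjusted p = 0.0502 to 0.0624). The differences of *ugt-53* and *ugt-42* were kept without any 1 library. Against WT, *ugt-53* in *pals-22(jy3)* mutants passed only with the replicate block (edgeR adjusted p = 0.00328).

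The 2 genotypes with active PALS-25 were compared directly. In *pals-22(jy3)* against *pals-25(jy111)* mutants, 13 of 90 members were lower (14.4%), against 6.11% of all genes, and 7 were higher (7.78%), against 7.48% of all genes. *ugt-43* alone passed a log2 fold change of 2, which 2.56% of all genes passed. This gene reached the filter only through its *pals-22(jy3)* libraries, so that the filter favoured the direction of its call. Members had a median log2 fold change of 0.04, and all genes one of -0.07, and it turned to -0.07 for the members without *pals-25(jy111)* replicate 1. The replicate numbers were taken to pair these libraries too. With the replicate block 23 members were higher (25.6%), against 18.3% of all genes. With it 26 were lower (28.9%), against 29.2% of all genes, a share of lower members close to that of all genes. Fits that each left out 1 library had 4 to 8 higher and 6 to 17 lower members, with 4 and 6 without *pals-25(jy111)* replicate 3 and 8 lower without *pals-25(jy111)* replicates 2 or 4 or *pals-22(jy3)* replicate 4. Without replicate 1 of both genotypes 11 were higher and 13 lower, against 10% and 5.82% of all genes. Of the markers, 1 yolk gene was higher and the intestine list had 2 higher and 1 lower, and their part was not tested.

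The lower genes of that comparison included several of the most abundant members. *gst-10* had a log2 fold change of -1.55 ± 0.14 (edgeR adjusted p = 0.000303), *ugt-46* of -0.93 ± 0.10 (edgeR adjusted p = 0.000775) and *ugt-22* of -0.78 ± 0.09 (edgeR adjusted p = 0.0013), with no overlap of libraries and all kept without any 1 library. *ugt-52* was lower by -1.38 ± 0.27 (edgeR adjusted p = 0.0139), lost only without *pals-25(jy111)* replicate 3 (edgeR adjusted p = 0.0507). The higher genes included *ugt-43*, *ugt-16* and *ugt-21*, given above. *gst-20* (log2 fold change 0.91 ± 0.24, edgeR adjusted p = 0.0423) and *ugt-20* (0.86 ± 0.21, edgeR adjusted p = 0.0313) had all *pals-22(jy3)* libraries above those of *pals-25(jy111)* mutants. These calls were kept in 2 and 3 of the 8 fits that left out 1 library.

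**Figure D4:**
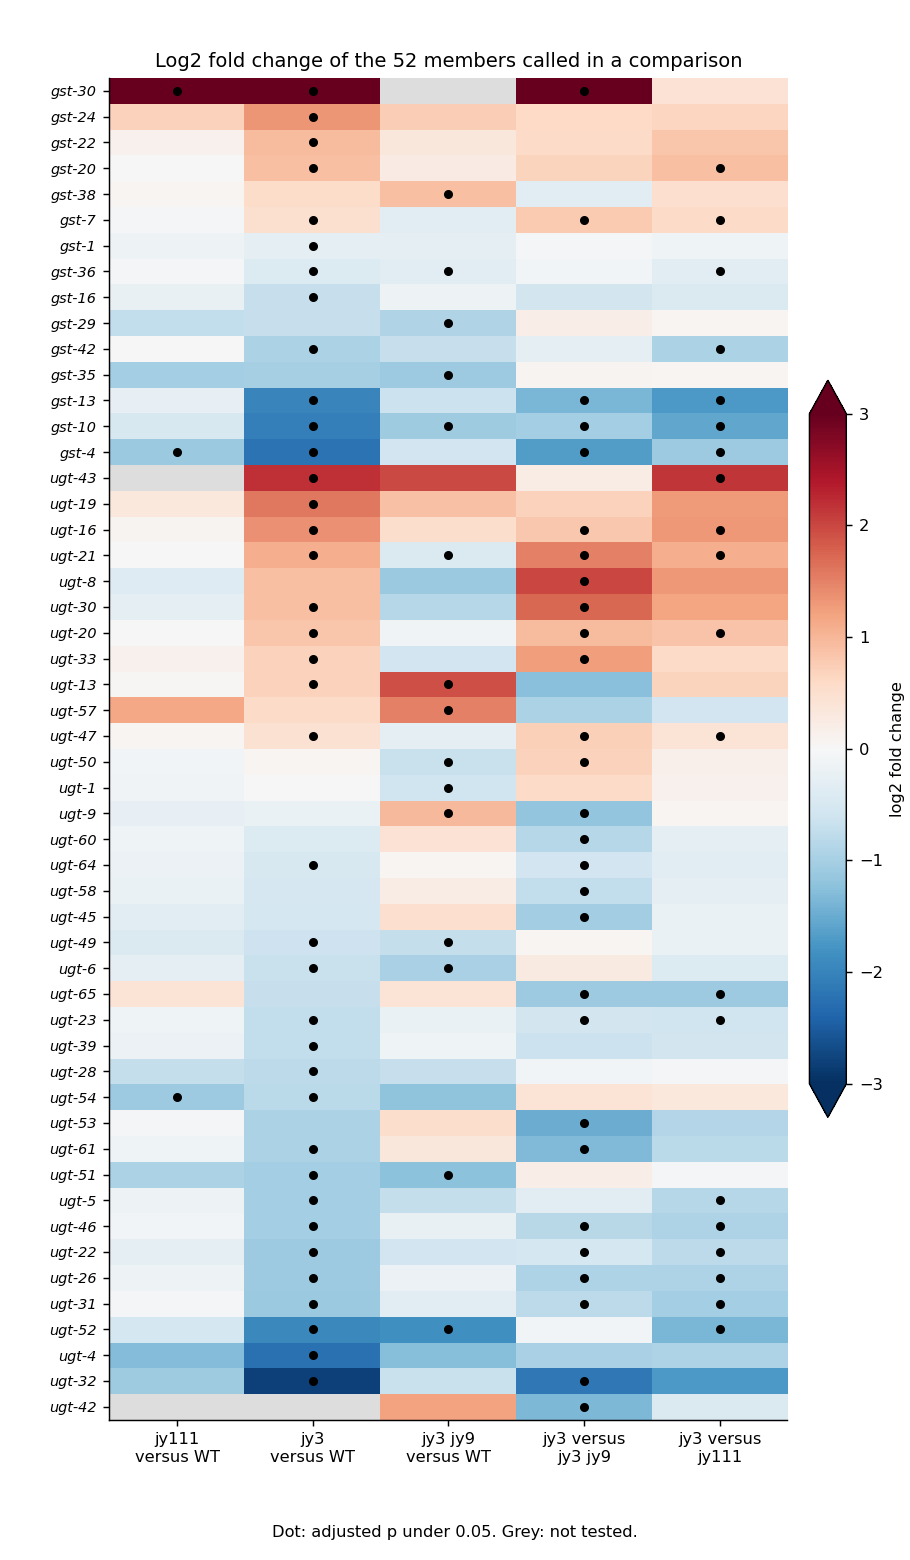
Log2 fold change (colour, red for higher and blue for lower in the genotype named first) of the 52 *gst* and *ugt* genes called in at least 1 of 5 comparisons (columns), with a dot where the adjusted p was under 0.05 and grey where a gene was not tested. *gst-30* is the only red dot in *pals-25(jy111)* mutants against WT, and the column of *pals-22(jy3)* mutants against WT holds 38 dots.

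Many members lie side by side in the genome. With neighbours at most 10000 bases apart, 62 of the members formed 15 clusters, the largest with 9 genes each, both *gst* clusters on chromosome II. By chromosome, II held 25 of the 44 *gst* genes and V held 42 of the 67 *ugt* genes. Genes of one cluster can be similar in sequence, and how reads that match more than 1 of them were counted is a setting not given in the sources used here. Called members numbered 2 or more in 4 clusters in *pals-22(jy3)* mutants against WT, and in 3 of them all called members moved the same way. These were *ugt-19* and *ugt-20*, both higher, the pair *ugt-26* and *ugt-28* on chromosome I, both lower, and *ugt-4*, *ugt-5* and *ugt-6* on chromosome V, all lower. In the remaining one, the cluster of 9 genes from 13608154 to 13630887 on chromosome II, *gst-20* and *gst-24* were higher and *gst-16* was lower. How often called neighbours move the same way among all genes was not computed. Of the 38 members called in this comparison, 24 were lower. In the cluster of 8 genes from 4887165 to 4911399 on chromosome V, *ugt-8* was higher and *ugt-9* lower in *pals-22(jy3)* than in double mutants. Of these calls in *pals-22(jy3)* mutants against WT, those of *ugt-5* and *ugt-26* were kept without any 1 library, and those of *ugt-28*, *ugt-6* and *gst-16* in 5, 2 and 1 of the 8 fits that left out 1 library. *ugt-5*, *ugt-26*, *ugt-28* and *gst-16* are named outside the rule for named genes, for their position.

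The genes that supply the transferases were followed in lists. Of the genes of glutathione synthesis and redox, 12 of 18 tested were lower and 0 higher in *pals-22(jy3)* mutants against WT, with a median log2 fold change of -0.42. Of all genes, 11.3% were lower and 9.97% higher. By edgeR 0 of 17 were called in either direction in *pals-25(jy111)* mutants against WT (5 at an unadjusted p under 0.05, 1 by DESeq2, 1 higher and 1 lower with the replicate block), and in double mutants 2 of 19 were lower. Of all genes, 6.07% were lower in double mutants against WT. Between *pals-22(jy3)* and double mutants 10 of 18 were lower and 1 higher, but only 3 lower and 1 higher without replicate 1. The shares of all genes lower there were 11.1%, and 12.8% without replicate 1. In *pals-22(jy3)* against *pals-25(jy111)* mutants 4 of 18 were lower, and 10 with the replicate block, against 6.11% and 29.2% of all genes. *cth-1*, one of the genes for cystathionine gamma-lyase, which makes the cysteine for glutathione, was at 117 ± 48.1 CPM in *pals-22(jy3)* mutants, against 478 ± 99.4 CPM in WT (log2 fold change -2.14 ± 0.31, edgeR adjusted p = 0.00185). *gpx-5*, a glutathione peroxidase gene, was at 16.2 ± 3.4 CPM, against 34 ± 3.2 CPM in WT (log2 fold change -1.16 ± 0.16, edgeR adjusted p = 0.00156). *gpx-7* was at 9.93 ± 2.23 CPM, against 17.7 ± 2.99 CPM in WT (log2 fold change -0.94 ± 0.19, edgeR adjusted p = 0.00815).

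**Figure D5:**
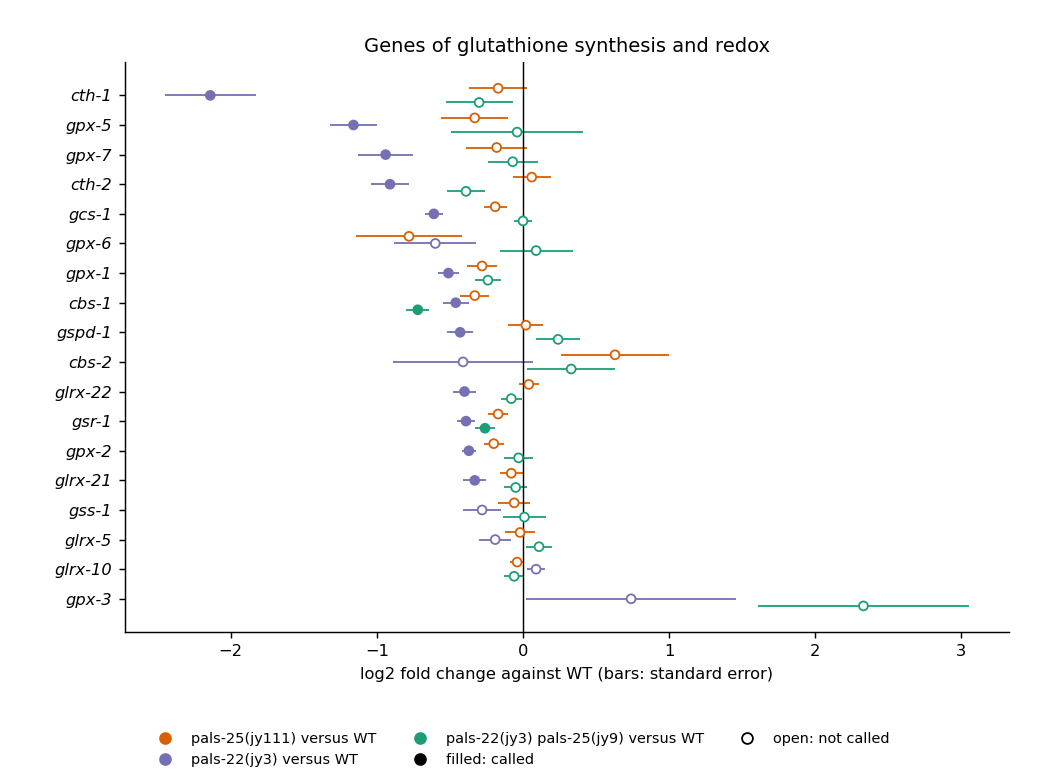
Log2 fold change against WT (horizontal axis, bars show the standard error) of 18 genes of glutathione synthesis and redox (vertical axis) in *pals-25(jy111)*, *pals-22(jy3)* and double mutants, with filled points at adjusted p under 0.05. In *pals-22(jy3)* mutants 12 points are filled, all below 0, and in *pals-25(jy111)* mutants 0 are filled.

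The other lists gave fewer calls. Of the genes for UDP-sugar supply, *sqv-4*, which encodes UDP-glucose dehydrogenase, was at 88.4 ± 10.9 CPM in *pals-22(jy3)* mutants, against 132 ± 21.4 CPM in WT (log2 fold change -0.68 ± 0.13, edgeR adjusted p = 0.00795). *sqv-7*, which encodes a Golgi nucleotide sugar transporter, had a log2 fold change of -0.61 ± 0.15 (edgeR adjusted p = 0.0224) in the same comparison and -0.84 ± 0.19 (edgeR adjusted p = 0.0357) in double mutants against WT. By edgeR 0 of the 8 genes of the ABC exporter list were called in *pals-22(jy3)* or *pals-25(jy111)* mutants against WT. At an unadjusted p under 0.05 were 2 of them in *pals-22(jy3)* mutants and 1 in *pals-25(jy111)* mutants, and DESeq2 called the same numbers. With the replicate block 2 were higher in *pals-22(jy3)* mutants and 1 in *pals-25(jy111)* mutants, and without replicate 1 of both genotypes 2 were higher in *pals-22(jy3)* mutants. In these fits 14.4%, 5.17% and 16.9% of all genes were higher. In *pals-22(jy3)* against *pals-25(jy111)* mutants 0 were called, and 2 were higher and 1 lower with the block, against 18.3% and 29.2% of all genes. In double mutants *mrp-2* was higher and *mrp-3* lower than in WT, and *mrp-5* was higher in *pals-22(jy3)* than in double mutants. By edgeR 0 of the 5 genes of other GST classes were called in any comparison, 1 had an unadjusted p under 0.05 and a DESeq2 call, in double mutants against WT, and with the replicate block 1 was lower in *pals-22(jy3)* against *pals-25(jy111)* mutants and 1 in double mutants against WT. Another list held genes that act on compounds before conjugation. In it *ceeh-2*, an epoxide hydrolase gene, was at 10.9 ± 2.12 CPM in *pals-22(jy3)* mutants, against 22.2 ± 1.72 CPM in WT (log2 fold change -1.13 ± 0.15, edgeR adjusted p = 0.000956). *fmo-3*, a flavin-containing monooxygenase gene, had a log2 fold change of -1.10 ± 0.19 and *fmo-1* one of 0.33 ± 0.08 in that comparison. With the replicate block 5 of the 7 genes tested in this list were lower in *pals-22(jy3)* mutants against WT, where 2 were without it. Of all genes 20.4% were lower with the block and 11.3% without it. *fmo-5* was the 1 gene of this list lower in *pals-25(jy111)* mutants against WT (log2 fold change -0.51 ± 0.10, edgeR adjusted p = 0.0266), where 5 of 7 were with the block. Of all genes 1.41% were lower there, and 4.61% with the block. *fmo-4* had the lowest value in double mutants (-1.35 ± 0.20, edgeR adjusted p = 0.00992).

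Of the regulators listed, 10 were tested, among them *skn-1* and *wdr-23*, whose product holds SKN-1 in check. *nhr-86*, a nuclear hormone receptor gene, was the 1 gene called, in the 3 comparisons of *pals-22(jy3)* mutants. With the replicate block, 6 regulators were higher in *pals-22(jy3)* than in *pals-25(jy111)* mutants, 2 higher than in WT and 2 higher than in double mutants, and 1 was higher and 1 lower in *pals-25(jy111)* mutants against WT. The shares of all genes in these fits were 18.3%, 14.4% and 11.6% higher in *pals-22(jy3)* mutants. They were 5.17% higher and 4.61% lower in *pals-25(jy111)* mutants against WT. *nhr-86* was at 41.3 ± 3.1 CPM in *pals-22(jy3)* mutants, 29.2 ± 0.991 CPM in *pals-25(jy111)* mutants and 26.0 ± 1.51 CPM in double mutants, against 26.3 ± 1.67 CPM in WT. For *nhr-86* the log2 fold change was 0.56 ± 0.07 against WT (edgeR adjusted p = 0.000828), 0.59 ± 0.07 against double mutants (edgeR adjusted p = 0.00108) and 0.43 ± 0.07 against *pals-25(jy111)* mutants (edgeR adjusted p = 0.00477).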

How the data were processed

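Whole L4 animals of 4 genotypes were sequenced as stranded, paired-end mRNA libraries, 4 biological replicates each. The authors aligned reads to the WS235 genome with Rsubread and deposited whole-number counts per gene from featureCounts, with no normalization. Tool versions, strandedness in counting and the handling of multi-mapping reads: not given in the sources used here. The 16 tables of single libraries held the same values as the combined table, which was used. Of 46904 gene IDs, 44017 had a name in the reference table, and every member was found in the Ensembl annotation. No replicates agreed within sampling noise (chi-square per gene at least 11.5).

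Each of 5 comparisons was fitted on its 8 libraries with edgeR 4.0.16 (R 4.3.3), TMM scaling and the quasi-likelihood test, on genes at 0.5 CPM or more in at least 4 libraries, with Benjamini-Hochberg adjustment over all genes tested. The study used limma-voom, which was run as an alternative (limma 3.58.1), as were DESeq2 1.42.0, its size factors in edgeR, no filter, filterByExpr, 1 fit over 16 libraries, a replicate block, and each library left out in turn. The fits without replicate 1 of both genotypes were added after seeing the data. The standard error was taken from the log2 fold change and its F statistic. CPM values were scaled by total counts and TMM factors over all 16 libraries, and CPM per kb used the gene length in the deposited count table. The scripts were tested on simulated data. Tables were handled with pandas 2.3.3.

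Same-numbered libraries deviated together, with correlations of deviations from the group mean of 0.151 to 0.856 between *pals-25(jy111)* mutants and WT, 0.174 to 0.844 between *pals-22(jy3)* mutants and WT and 0.481 to 0.891 for *pals-22(jy3)* against *pals-25(jy111)* mutants. The pairing comes from these correlations, since the labels give only the number. All were over 0.1, and these comparisons were taken as paired. The pairing was not clear for every library. Between *pals-25(jy111)* mutants and WT, replicates 3 and 4 correlated better with another number, at 0.298 and 0.624 against 0.151 and 0.325. Between *pals-22(jy3)* mutants and WT, replicate 4 did so, at 0.745 against 0.326.

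Named genes were, in each comparison, up to 5 called members with the highest and 5 with the lowest log2 fold change, every called member past a log2 fold change of 2, the 6 *gst* and 6 *ugt* genes highest per kb in WT, and *gst-4*, *gst-10* and *gst-42* for their known roles. Members with nearly identical proteins were to be named as uncertain too, but sequences were not used here. The members, gene lists and markers were chosen with earlier results of these data known. Intervals and p-values cover the spread between these replicates only. Libraries of another *pals-25* strain were not analysed here.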

Additional observations from a re-analysis of the deposited data

Results flagged for a closer look

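In 6 of the 150 groups of 4 libraries examined, 1 library lay far from the other 3 of its genotype, and chance alone gives about 1 in 20. *ugt-16* was at 32.9 CPM in *pals-25(jy111)* replicate 3, with the other replicates at 23.9 to 24.9 CPM. *ugt-50* was at 143 CPM in *pals-25(jy111)* replicate 2, with the others at 97.3 to 104 CPM. *ugt-6* was at 24.7 CPM in *pals-22(jy3)* replicate 4, with the others at 41.2 to 44.5 CPM. In replicate 4 of the double mutants, *ugt-43* was at 3.91 CPM and *ugt-54* at 8.31 CPM, with the others at 0.805 to 1.29 CPM and 2.15 to 2.86 CPM. *ugt-8* was at 22.5 CPM in WT replicate 1, with the others at 7.18 to 8.49 CPM.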

How the results depend on the processing

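In *pals-25(jy111)* mutants against WT, 8 members were lower with DESeq2, 1 in the fit over 16 libraries and 4 without replicate 1, against 2 in the report. With the replicate block the counts were 5 and 14. In double mutants against WT, 14 were higher and 21 lower with DESeq2, 7 higher in the fit over 16 libraries and 7 lower without replicate 1, against 4 and 11. In *pals-22(jy3)* against *pals-25(jy111)* mutants, 12 were higher with DESeq2, 12 in the fit over 16 libraries and 11 without replicate 1, against 7. With the replicate block the counts were 23 and 26. Shares of all genes called were not computed for DESeq2 or the fit over 16 libraries, so their counts have no background. The cause was not tested.

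In double mutants against WT and in *pals-22(jy3)* against double mutants the numbers did not pair all libraries, with a correlation of -0.201 and 0.045 for replicate 4. There the replicate block gave 10 higher and 12 lower members, against 3.77% and 6.3% of all genes, and 15 and 18, against 11.6% and 10.9%. In *pals-22(jy3)* mutants against WT the block gave 21 and 35, against 14.4% and 20.4% of all genes, and the fit without replicate 1 gave 20 and 28, against 16.9% and 12.8%. Not every library correlated best with its own number.

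Leaving out 1 library gave 1 higher and 1 to 4 lower members in *pals-25(jy111)* mutants, 9 to 19 and 14 to 25 in *pals-22(jy3)* mutants and 1 to 5 and 5 to 17 in double mutants, all against WT. It gave 8 to 16 and 11 to 20 in *pals-22(jy3)* against double mutants, and 4 to 8 and 6 to 17 against *pals-25(jy111)* mutants. Shares of all genes called were not computed for these fits either. Of 75 called values of named genes, 74 were kept with DESeq2, 73 with limma-voom, 64 with no filter and 63 without replicate 1, and 457 of 600 when 1 library was left out. In these fits 0 called values changed sign. The median log2 fold change in *pals-22(jy3)* mutants against WT was 0.06 with no filter. Members with few counts, such as *gst-30*, have the least certain folds.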
